A study of Mus musculus with 14 samples.

Results

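The genes described here encode the machinery that detects a ribosome stalled on an mRNA, takes it apart and disposes of the unfinished protein. There were 10 of them among 53239 gene symbols, chosen by name for their place in this pathway: *Zfp598*, *Pelo*, *Hbs1l*, *Gtpbp2*, *Ltn1*, *Nemf*, *Vcp*, *Nploc4*, *Tcf25* and *Ankzf1*. Each gene's value was the sum over its annotated transcripts, 71 transcript entries in all. All 10 passed the filter on low counts in every comparison.

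RNA came from testes of 21-day-old C57BL/6 mice that were either *Adad2* M/M (mutant, MUT, n = 4) or *Adad2* +/+ (wild-type, WT, n = 3). ADAD2 is an RNA-binding protein of late meiotic male germ cells. All 7 animals, controls included, were heterozygous for *Rpl22-HA* and carried *Stra8-iCre*, so that Cre put a tag on a large-subunit ribosomal protein in differentiating male germ cells. Each testis lysate gave a total RNA library (input) and a library of RNA pulled down with the tagged ribosomes (IP), 14 libraries in all, each pair from 1 animal. Input therefore held RNA of every testis cell type, whereas IP was meant to hold ribosome-bound RNA of germ cells, and IP/input (ribosome association) mixes the cell type and the ribosome-bound share of an mRNA.

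When a ribosome stalls and the one behind runs into it, the ubiquitin ligase ZFP598 recognises the collided pair. Pelota (PELO) with the GTPase HBS1L, or with GTPBP2, then helps to split the stalled ribosome, leaving an unfinished chain on the large subunit. NEMF binds that subunit, the ubiquitin ligase Listerin (LTN1) marks the chain with the help of TCF25, ANKZF1 cuts the chain from its tRNA, and the ATPase VCP with its adaptor NPLOC4 pulls the chain out for destruction. Male germ cells need parts of this route: in mice, *Pelo* is required to maintain spermatogonia.

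The libraries held 22987974 to 30330450 expected counts (input) and 25037235 to 30871330 (IP). Among the input libraries, those of mutants 12 and 69 had the fewest annotated genes above 0 (16024 and 15438). Mutants 93 and 94 had 21334 and 27002, and WT had 25319 to 27791. Results were therefore also computed without animals 12 and 69. In IP all 4 mutants (12744 to 15024) lay below WT (19655 to 21880), and leaving out animals 12 and 69 does not remove that difference. In IP, and so in IP/input, genotype and the number of genes above 0 cannot be told apart. *Adad2* itself, in CPM (counts scaled to library size with TMM factors), averaged 9.29 ± 2.22 in MUT IP and 103 ± 5.19 in WT IP, and 8.14 ± 3.43 in MUT input and 27.5 ± 2.56 in WT input (SD, n = 4 and 3). Every mutant library lay below every WT library, although the transcript was not gone. The summed level of 8 late pachytene markers was lower in mutants without overlap (2069 to 2478 CPM in MUT input and 2943 to 3488 in WT input, 3098 to 3301 in MUT IP and 4523 to 4907 in WT IP), as was that of 8 round spermatid markers (43.7 to 66.8 in MUT input and 109 to 146 in WT input, 15.3 to 45.0 in MUT IP and 66.5 to 97.1 in WT IP, with *Tnp1*, *Tnp2*, *Prm1*, *Prm2* and *Gapdhs* at 0 in every MUT IP library). Sertoli markers summed to 638 to 938 CPM in MUT input and 503 to 594 in WT input. In whole-tissue libraries, fewer cells of a type and less RNA per cell cannot be told apart.

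The start of an mRNA is one of the features known to set how readily ribosomes load onto it, so the first transcribed bases are shown for *Pelo*, the highest in ribosome association in WT, for *Vcp* and *Zfp598*, called higher in IP in both genotypes, and for *Ltn1* and *Hbs1l*, the lowest. Lower case gives the 20 bases before the annotated start and capitals the 30 transcribed bases after it (RefSeq, GRCm38.p6, all 10 genes matched). *Pelo* lies at chr13:115090129-115090178 on the minus strand, *Vcp* at chr4:43000478-43000527 on the minus strand, *Zfp598* at chr17:24669667-24669716 on the plus strand, *Ltn1* at chr16:87432577-87432626 on the minus strand and *Hbs1l* at chr10:21295959-21296008 on the plus strand.
Pelo: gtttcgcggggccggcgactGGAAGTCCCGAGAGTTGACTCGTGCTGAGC
Vcp: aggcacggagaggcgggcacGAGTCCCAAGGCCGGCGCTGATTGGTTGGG
Zfp598: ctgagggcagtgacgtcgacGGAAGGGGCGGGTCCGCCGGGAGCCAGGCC
Ltn1: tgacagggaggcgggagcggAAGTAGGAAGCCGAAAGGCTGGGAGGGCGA
Hbs1l: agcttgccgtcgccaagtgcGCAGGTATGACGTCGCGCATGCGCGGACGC
No member began with a C followed by at least 4 pyrimidines, the start of a TOP mRNA (0 of 10), against 18.6% of 70 cytosolic ribosomal protein genes and 2.51% of 32851 annotated promoters. With so low a share over all promoters, 0 of 10 is no result about the members. The search read only the annotated start base, where most of the ribosomal protein genes did not match either. It therefore cannot decide whether a member is a TOP mRNA. The 5 starts shown begin with G or A, in members of high and of low ribosome association alike.

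The promoters, read from 250 bases before to 50 after the start, were GC-rich, with a median GC content of 60.8% against 60.3% over 11730 genes measured in all libraries. The letters CGCATGC, the core of the motif of the activator NRF1, occurred on either strand in 2 of 10 members, *Hbs1l* and *Nploc4*, against 3.58% of all promoters and 6.59% of those of the measured genes. Both promoters are printed from 250 bases before to 30 after the start, with the overlapping matches of both strands in capitals, since both genes were among the 3 members without overlap between genotypes in input, as described further on. *Hbs1l* is at chr10:21295729-21296008 on the plus strand and *Nploc4* at chr11:120437671-120437950 on the minus strand.
Hbs1l promoter: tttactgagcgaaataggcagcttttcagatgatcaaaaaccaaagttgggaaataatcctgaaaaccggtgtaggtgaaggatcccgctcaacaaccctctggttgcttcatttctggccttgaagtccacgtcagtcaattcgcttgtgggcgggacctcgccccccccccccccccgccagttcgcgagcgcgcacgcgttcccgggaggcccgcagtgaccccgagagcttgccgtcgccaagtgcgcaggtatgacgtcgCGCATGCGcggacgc
Nploc4 promoter: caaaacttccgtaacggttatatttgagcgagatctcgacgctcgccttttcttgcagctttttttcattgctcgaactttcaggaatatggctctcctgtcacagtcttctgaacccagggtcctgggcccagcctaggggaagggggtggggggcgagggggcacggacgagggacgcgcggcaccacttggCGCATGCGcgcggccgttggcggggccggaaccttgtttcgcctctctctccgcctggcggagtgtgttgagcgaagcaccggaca
The match begins at base 16 of the *Hbs1l* transcript and at position -56 from the *Nploc4* start. *Gtpbp2*, the other member without overlap in input, held no such match, and a match is a description of the letters, not a site of binding. CCAAT, on either strand, occurred in 5 of 10 members against 37.4% of all promoters and 38.99% of those of the measured genes, GGGCGG in 2 of 10 against 35.7% and 60.3%, and TATAAA in 1 of 10 against 13.6% and 7.37%. These words, a longer form of the NRF1 motif and the cAMP response element were all searched after the values were seen. The outcomes for the longer motif and the response element are not given here.

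The members spanned a wide range of RNA levels. On the TPM scale, which divides by transcript length, and over protein-coding transcripts alone, *Vcp* stood far above the rest: 103 ± 10.3 in MUT input and 117 ± 10.4 in WT input (SD, n = 4 and 3). In WT input *Hbs1l* (50.7 to 53.3 TPM) and *Nploc4* (42.9 to 50.4 TPM) came next, their ranges separated by less than either range's width. *Tcf25* (17.6 to 22.3) and *Nemf* (16.7 to 19.8) overlapped, as did *Gtpbp2* (6.09 to 8.52) and *Zfp598* (6.45 to 7.49), with *Ltn1* between these pairs (9.33 to 12.0) and *Pelo* (4.43 to 6.08) and *Ankzf1* (0.82 to 2.20) at the bottom. In WT IP the order differed: *Pelo*, at 28.8 to 32.6 TPM, lay above *Ltn1*, at 10.01 to 15.6 TPM, and *Nploc4* (97.2 to 127 TPM) above *Hbs1l* (41.7 to 70.9 TPM).

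**Figure D1:**
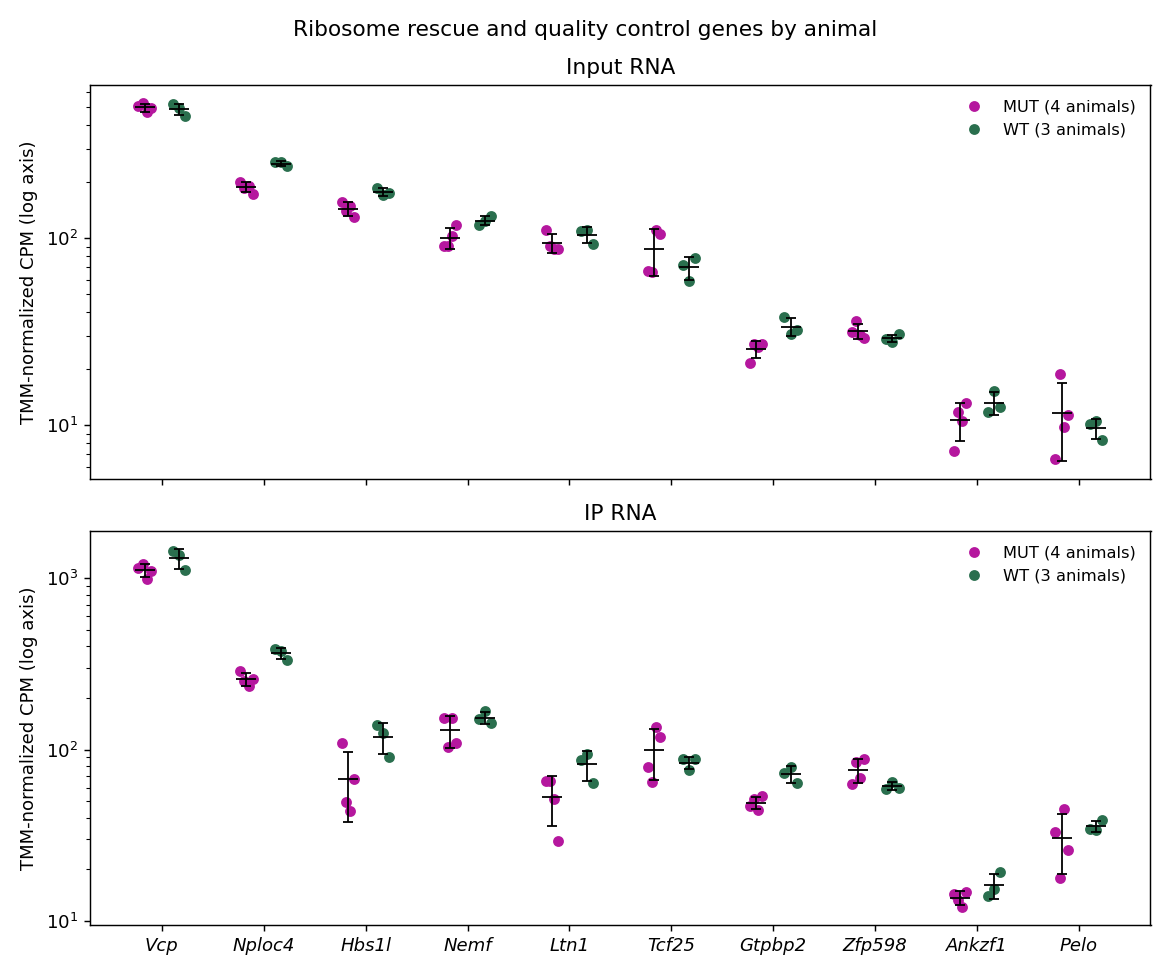
TMM-normalized CPM (log axis) of the 10 genes in input (upper) and IP (lower), 1 point per animal, MUT left of WT, with black bars for the mean and SD. *Nploc4* and *Gtpbp2* of the 4 mutants lie below those of the 3 WT animals in both panels, and *Hbs1l* in input only.

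The first question was whether total RNA of the pathway differed in the mutant testis. No member was called in input (edgeR quasi-likelihood test, Benjamini-Hochberg adjusted p under 0.05 over 36572 features), nor by DESeq2, and 3 had an unadjusted p under 0.05, all lower in mutants (*Nploc4*, *Nemf*, *Hbs1l*). Of all features, edgeR called 0.00547% higher and 0.00273% lower, DESeq2 called 0.962% higher and 2.16% lower, and 1.60% were higher and 4.76% lower at the unadjusted edgeR threshold. Values of the 4 mutants did not overlap those of the 3 WT animals for 3 members, *Nploc4*, *Hbs1l* and *Gtpbp2*, all lower, and 11.3% of all features were lower without overlap and 2.47% higher. The median log2 change was -0.21 over the members and -0.18 over all features. Under a minimum of 10 counts per library, these were -0.14 and 0.03, 6.61% of 15193 features were higher and 6.24% lower before p adjustment, and only *Nploc4* of the members passed, as lower.

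*Nploc4*, the adaptor that brings ubiquitylated chains to VCP, had 199, 185, 190.2 and 171 CPM in MUT input of animals 12, 69, 93 and 94, against 254, 253 and 241 CPM in WT input of animals 17, 121 and 140. The highest mutant was below the lowest WT animal, a log2 difference of -0.41 ± 0.10 (SE; edgeR adjusted p = 0.347). In IP it had 289, 252, 235 and 257 CPM in mutants and 385, 377 and 334 CPM in WT, again without overlap (log2 -0.48 ± 0.11, edgeR adjusted p = 0.114).

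*Gtpbp2*, a GTPase that works with Pelota, had 21.5, 27.2, 26.02 and 27.2 CPM in MUT input, against 37.8, 30.7 and 32.4 CPM in WT input (log2 -0.39 ± 0.18, edgeR adjusted p = 0.877). In IP the values were 46.5, 51.5, 44.4 and 53.3 CPM in mutants and 72.6, 79.5 and 63.9 CPM in WT (log2 -0.53 ± 0.15, edgeR adjusted p = 0.115). The groups did not overlap in either fraction. On the log2(TPM + 1) scale, summed over all transcripts, the *Gtpbp2* difference in input turned to 0.393. The related GTPase *Gtpbp1* gave a log2 difference of -0.05 ± 0.23 in input and 0.17 ± 0.18 in IP, and it was not called.

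In IP, edgeR called no member between the genotypes, with 0.00382% of 26186 features called in each direction, and 3 members had an unadjusted p under 0.05, all lower in mutants (*Nploc4*, *Gtpbp2*, *Hbs1l*), as did 10.3% of features, with 1.34% higher. DESeq2 called 2 of the 10 lower, *Nploc4* (log2 -0.37, DESeq2 adjusted p = 0.00545) and *Gtpbp2* (log2 -0.43, DESeq2 adjusted p = 0.0308), where it called 7.94% of all features lower and 1.63% higher. These were also the 2 members whose groups did not overlap in IP, against a background of 15.1% lower and 1.72% higher. Under the same minimum of 10 counts per library the features that passed before adjustment were nearly balanced (5.27% of 10987 higher and 5.75% lower), and 3 members passed as lower, *Nploc4*, *Gtpbp2* and *Hbs1l*, and 1 as higher, *Zfp598*. The lower late pachytene and round spermatid markers given above moved with these values, and their part in them was not tested.

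*Hbs1l*, the GTPase partner of Pelota, was the third member without overlap in input: 156, 139.7, 148 and 129 CPM in mutants and 185, 169 and 174 CPM in WT (log2 -0.28 ± 0.11, edgeR adjusted p = 0.683). In IP the mutants had 109, 49.2, 43.6 and 67.6 CPM, against 139, 125 and 91.0 CPM in WT. Mutant 12 lay above the lowest WT animal, and the other mutants below all of WT (log2 -0.78 ± 0.33, edgeR adjusted p = 0.420). *Gspt1*, which encodes the termination GTPase related to HBS1L, differed by -0.14 ± 0.17 in IP on the log2 scale.

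*Nemf*, which recognises the split large subunit, had 90.4, 90.4, 102 and 117 CPM in MUT input, against 117, 123 and 131 CPM in WT input. The highest mutant (117.3) and the lowest WT animal (116.9) met (log2 -0.30 ± 0.11, edgeR adjusted p = 0.609). In IP it had 152, 103, 154 and 109 CPM in mutants and 151, 167 and 142 CPM in WT, with overlap.

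*Ltn1*, the ligase that marks the stalled chain, had 109.8, 90.2, 86.9 and 87.3 CPM in MUT input, against 109.5, 110.4 and 92.5 CPM in WT input. Mutant 12 was at the level of WT and the other mutants were below it. In IP the mutants had 66.0, 65.5, 51.2 and 29.3 CPM and WT had 87.1, 94.7 and 64.1 CPM, the groups overlapping (log2 -0.60 ± 0.30, edgeR adjusted p = 0.617).

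*Vcp*, the ATPase, had 505, 526.5, 468 and 491.5 CPM in MUT input and 518, 494 and 450.6 CPM in WT input (log2 0.04 ± 0.09). In IP it had 1144, 1217.5, 987 and 1104 CPM in mutants and 1447, 1376 and 1118 CPM in WT (log2 -0.21 ± 0.12, edgeR adjusted p = 0.682), with overlap in both fractions.

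*Zfp598*, the collision sensor, had 31.3, 36.2, 30.3 and 29.4 CPM in MUT input and 28.9, 27.8 and 30.6 CPM in WT input. In IP the values were 63.1, 84.8, 68.6 and 88.1 CPM in mutants and 58.9, 65.0 and 59.8 CPM in WT (log2 0.34 ± 0.16, edgeR adjusted p = 0.567). It and *Tcf25* were the members above 0 in IP, and the groups of both overlapped.

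*Pelo*, the ribosome-splitting factor itself, varied more among mutants than any other member in input: 6.60, 18.8, 9.76 and 11.3 CPM in MUT input, against 10.2, 10.5 and 8.32 CPM in WT input. These values rested on 173 to 533 expected counts in mutants and 216 to 268 in WT. In IP it had 32.9, 17.7, 45.2 and 25.9 CPM in mutants and 34.6, 34.1 and 38.9 CPM in WT. Animal 69, highest in input, was lowest in IP. *Pelo* is a short gene inside *Itga1* on the same strand and also overlaps *Gm49395*, so the assignment of its reads depends on the model of both.

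*Tcf25*, a Listerin cofactor known from its yeast counterpart, split the mutants in 2 pairs: 66.4 and 65.9 CPM in animals 12 and 69 and 111 and 105 CPM in animals 93 and 94, against 71.6, 59.1 and 78.2 CPM in WT input. In IP it had 78.8, 64.8, 135 and 119 CPM in mutants and 87.6, 76.4 and 87.7 CPM in WT. The same pair was high in both fractions, and the genotypes overlapped. It shares its strand and locus with *Gm20388*.

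*Ankzf1*, which releases the stalled chain from its tRNA, was the least abundant member by coding TPM. It had 7.33, 11.8, 10.6 and 13.1 CPM in MUT input and 11.8, 15.2 and 12.5 CPM in WT input, and 14.4, 13.2, 12.1 and 14.8 CPM in MUT IP and 13.9, 15.3 and 19.2 CPM in WT IP. The genotypes overlapped in both fractions.

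**Figure D2:**
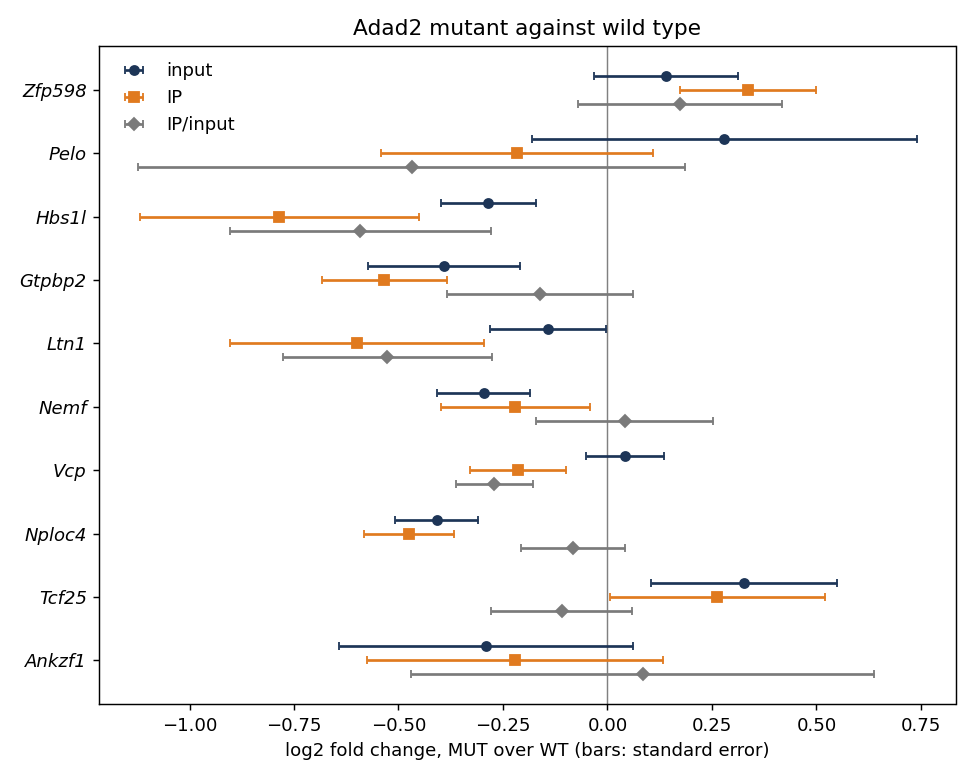
Log2 fold change of MUT over WT for each gene in input (circles), IP (squares) and IP/input (diamonds), with bars for the standard error from edgeR. *Nploc4* and *Gtpbp2* sit at -0.39 to -0.53 in input and IP but near 0 in IP/input, whereas *Hbs1l* and *Ltn1* sit lowest in IP and IP/input.

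The second question was how strongly each mRNA was recovered with tagged ribosomes. In WT testes 7 of 10 members were called higher in IP than in input and none lower by edgeR (animal as a block, adjusted p under 0.05), where 13.0% of 34864 features were called higher and 6.37% lower. With DESeq2 the members' counts were 8 higher and 0 lower (22.9% and 31.2% of features), and 8 and 0 without p adjustment in edgeR (18.5% and 14.8%). In mutant testes edgeR called 2 members higher, *Vcp* and *Zfp598*, and 1 lower, *Hbs1l*, against 6.35% of 22918 features higher and 3.56% lower, while with DESeq2 there were 5 higher and 2 lower (13.9% and 29.9% of features). Without p adjustment edgeR gave 4 higher and 2 lower (11.8% and 11.3%). The direction was the same in every animal for 8 members higher and 2 lower in WT (19.3% and 47.1% of all features), and for 5 higher and 2 lower in mutants (14.3% and 26.0%). Under a minimum of 10 counts in every library the background shares were higher. There edgeR called 7 members higher and 1 lower in WT, against 5512 and 5813 of 19518 features. In mutants it called 3 members higher and 2 lower, against 1960 and 1977 of 9872 features.

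The median log2 IP/input was 0.42 over the members and -0.63 over all features in the MUT fit, and 0.74 and -0.60 in the WT fit. The scale of the WT fit lay 0.31 above the CPM ratios computed over all 14 libraries, on which the members' median was 0.42 in MUT and 0.43 in WT. The MUT and WT log2 values and calls given for each member below come from these separate fits, so they do not compare the genotypes. A minimum of 10 counts per library moved the median of all features to -0.02 in MUT and -0.09 in WT, and *Hbs1l* was then called lower in WT as well (log2 -0.45, edgeR adjusted p = 0.0190). With 1 WT animal left out only 2 remained, so these fits had fewer samples by construction. Without animal 121 or animal 140 no feature at all was called, with 7 members still higher at an unadjusted p under 0.05 in each case. Without animal 17, 5 members were called. The members' median log2 value was 0.76, 0.82 and 0.68 without animals 121, 140 and 17, against 0.74 with all 3. In mutants *Vcp* alone was called without animal 69, 93 or 94, its log2 value between 1.10 and 1.17, and no member was without animals 12 and 69 together, where *Vcp* was at 1.15 (edgeR adjusted p = 0.0530).

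*Pelo* had the highest IP/input in WT, with CPM ratios of 4.99, 0.94, 4.63 and 2.28 in mutants and 3.41, 3.24 and 4.68 in WT. It was enriched in every WT animal (log2 2.21 ± 0.18, edgeR adjusted p = 0.00698) but not in mutant 69, and the mutant value missed the threshold (log2 1.43 ± 0.62, edgeR adjusted p = 0.235). Its ratio ranked at percentile 92.0 in MUT and 97.4 in WT among 12496 annotated genes. *Etf1*, the stop codon release factor related to Pelota, had ratios of 0.60, 1.297, 0.71 and 0.71 in mutants and 0.89, 1.17 and 0.96 in WT, below *Pelo* in 6 of 7 animals.

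*Vcp* mRNA was enriched in all 7 animals: 2.27, 2.31, 2.11 and 2.25 in mutants and 2.79, 2.79 and 2.48 in WT. The call was made in both genotypes (MUT log2 1.16 ± 0.08, edgeR adjusted p = 0.00143; WT log2 1.74 ± 0.09, edgeR adjusted p = 0.00634). The mutant ratios lay below all WT ratios, as taken up in the comparison of genotypes.

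*Zfp598* had ratios of 2.01, 2.34, 2.27 and 3.00 in mutants and 2.04, 2.34 and 1.95 in WT, and was called higher in both (MUT log2 1.25 ± 0.22, edgeR adjusted p = 0.0195; WT log2 1.38 ± 0.13, edgeR adjusted p = 0.00850). *Gtpbp2* had 2.17, 1.89, 1.71 and 1.96 in mutants and 1.92, 2.59 and 1.97 in WT, called in WT (log2 1.41 ± 0.15, edgeR adjusted p = 0.0115) and not in mutants (log2 0.94 ± 0.24, edgeR adjusted p = 0.0692). The ratios of both mRNAs ran from 1.71 to 3.00 over the 7 animals.

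*Nploc4*, *Nemf* and *Tcf25* were called higher in IP in WT, with smaller ratios than the members above. None of them was called in mutants (edgeR adjusted p = 0.0596, 0.276 and 0.538, in this order). Among the annotated genes their ratios ranked at percentiles 71.1, 63.6 and 62.3 in WT and 65.6, 63.4 and 56.9 in MUT. Under the 10-count minimum, the median log2 ratio in WT 140 was 0.18, above *Nemf* (0.12) and *Tcf25* (0.17) there. That median was 0.16 in WT 17 and 0.23 in WT 121, below both genes. *Nploc4* ratios were 1.46, 1.36, 1.24 and 1.501 in mutants and 1.51, 1.49 and 1.38 in WT (WT log2 0.86 ± 0.08, edgeR adjusted p = 0.00881). *Nemf* ratios were 1.68, 1.14, 1.51 and 0.93 in mutants and 1.29, 1.36 and 1.09 in WT (WT edgeR adjusted p = 0.0354). *Tcf25* ratios were 1.19, 0.98, 1.22 and 1.13 in mutants and 1.22, 1.29 and 1.12 in WT (WT edgeR adjusted p = 0.0310). *Ankzf1*, with 1.97, 1.12, 1.14 and 1.13 in mutants and 1.18, 1.0015 and 1.54 in WT, was called in neither genotype.

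*Hbs1l* and *Ltn1* behaved in the opposite way on the CPM scale, with less mRNA in IP than in input in all 7 animals. Of all features, 26.0% were lower in every mutant and 47.1% in every WT animal. Among the annotated genes the ratio of *Hbs1l* ranked at percentile 27.5 in MUT and 36.9 in WT, and that of *Ltn1* at 32.2 and 43.0. *Hbs1l* ratios were 0.70, 0.35, 0.30 and 0.52 in mutants and 0.75, 0.74 and 0.52 in WT (MUT log2 -1.18 ± 0.24, edgeR adjusted p = 0.0329; WT log2 -0.28 ± 0.16, edgeR adjusted p = 0.289). *Ltn1* ratios were 0.60, 0.73, 0.59 and 0.34 in mutants and 0.80, 0.86 and 0.69 in WT (MUT log2 -0.88 ± 0.21, edgeR adjusted p = 0.0520; WT log2 -0.05 ± 0.12, edgeR adjusted p = 0.783). The log2 values from the 2 fits do not compare the genotypes. On the common CPM scale the mean log2 ratios were -1.18 in MUT and -0.59 in WT for *Hbs1l*, and -0.88 and -0.36 for *Ltn1*. On the TPM scale IP was not below input in all animals. *Hbs1l* had TPM ratios of 1.53, 0.68, 0.51 and 0.89 in mutants and 1.56, 1.05 and 0.76 in WT, above 1 in 3 of 7 animals. *Ltn1* had TPM ratios of 1.31, 1.31, 1.08 and 0.64 in mutants and 1.55, 1.26 and 1.07 in WT, above 1 in 6 of 7. By group means both genes lay below the other members on either scale, while their position relative to 1 depended on it.

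The partners of one complex thus differed in ribosome association. *Pelo* exceeded *Hbs1l* in all 7 animals, by CPM ratios that ran from 0.94 to 4.99 for *Pelo* and from 0.30 to 0.75 for *Hbs1l*. *Gspt1*, the relative of *Hbs1l*, had 2.42, 2.41, 2.83 and 2.15 in mutants and 2.36, 2.88 and 2.25 in WT, above *Hbs1l* in each animal. *Ufd1*, whose product joins NPLOC4 on VCP, had 0.74, 0.79, 1.21 and 1.32 in mutants and 2.4001, 1.47 and 1.18 in WT and was below *Nploc4* in 6 of 7 animals. These orders are descriptions and were not tested between genes.

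**Figure D3:**
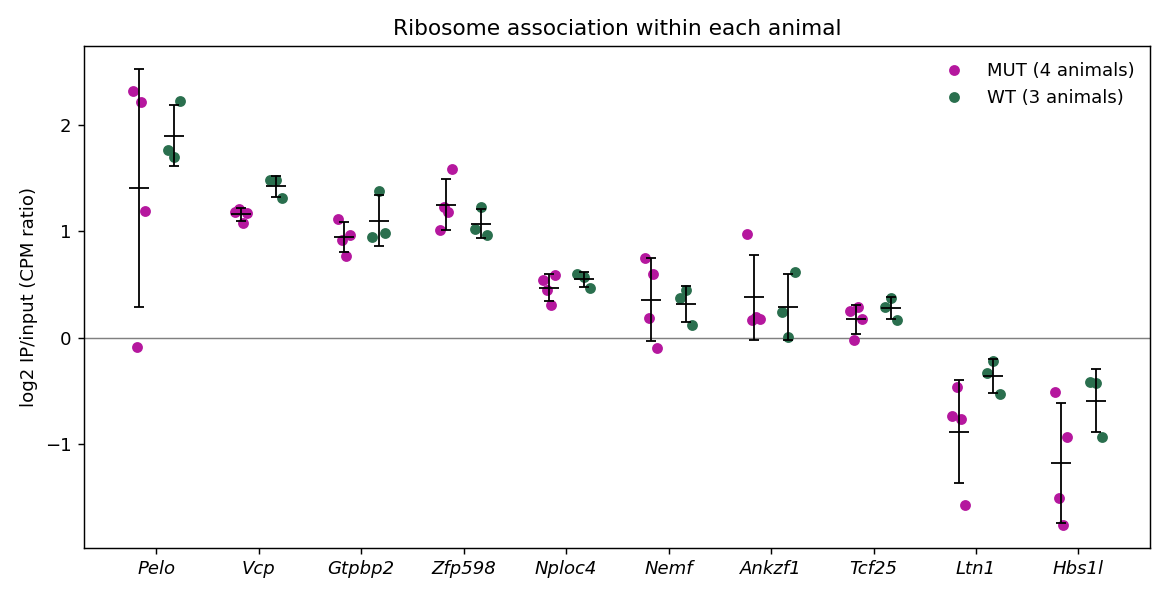
Log2 ratio of IP to input CPM within each animal, 1 point per animal, MUT left of WT, genes in order of the WT mean and black bars for the mean and SD. *Hbs1l* and *Ltn1* lie below 0 in all 7 animals, *Vcp*, *Gtpbp2*, *Zfp598*, *Nploc4* and *Ankzf1* above 0 in all 7, and *Pelo* of mutant 69 stands at -0.09 against 1.19 to 2.32 in the other mutants.

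The third question was whether ribosome association differed by genotype. No member was called for IP/input of MUT against IP/input of WT, and no feature of 16014 was (edgeR, animal as a block; 0% called in each direction), while DESeq2 called 0 members, with 0.212% of features higher and 5.90% lower. Without p adjustment edgeR gave 1 member past 0.05, *Vcp*, which was lower, as were 6.74% of features, with 0.475% higher. The median log2 difference was -0.13 over the members and -0.29 over all features, 7 of 10 members lying below 0. Under a minimum of 10 counts per library the medians were -0.05 and 0.02, 1.64% of 9784 features were higher and 1.51% lower before adjustment, and no member passed. Single animals moved the members' median: it was -0.34 without WT 140, -0.30 without WT 17, -0.28 without mutant 93, -0.21 without mutant 94, -0.17 without mutant 12, -0.08 without mutant 69 and -0.07 without WT 121. The median over all features was -0.46, -0.40, -0.47, -0.33, -0.38, -0.40 and -0.29 in the same order. Before adjustment, *Vcp*, *Ltn1* and *Hbs1l* passed as lower without WT 140, as did 921 of 16093 features, with 12 higher. Without WT 121 no member passed, and 615 of 16065 features were lower and 38 higher.

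*Vcp* differed by -0.27 ± 0.09 on the log2 scale (edgeR adjusted p = 0.540), with every mutant CPM ratio below every WT ratio, as were those of 8.56% of features, with 1.15% higher (exact two-sided permutation test, p = 0.0286). Under that minimum it was -0.19 ± 0.11 (edgeR adjusted p = 0.999). On the TPM scale the *Vcp* ratios were 4.72, 4.08, 3.80 and 4.13 in mutants and 5.28, 3.99 and 3.73 in WT and overlapped (exact two-sided permutation test, p = 0.743).

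*Zfp598* moved the other way on the TPM scale, with ratios of 4.39, 4.24, 4.16 and 5.70 in mutants and 3.96, 3.43 and 3.02 in WT. All mutant ratios were above all WT ratios (exact two-sided permutation test over 35 splits, p = 0.0286, the smallest it can give), as were those of 3.83% of features on this scale, with 5.55% lower. Of 20 such tests on plain ratios, 10 members on 2 scales, 2 reached that value (*Vcp* by CPM and *Zfp598* by TPM). The tests were repeated on log2 ratios, where the same 2 reached it, and p was not adjusted for the number of tests. On the CPM scale the *Zfp598* ratios overlapped (exact permutation p = 0.400).

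*Hbs1l* (log2 -0.59 ± 0.31, edgeR adjusted p = 0.765), *Ltn1* (-0.53 ± 0.25, adjusted p = 0.728) and *Pelo* (-0.47 ± 0.65, adjusted p = 0.953) had larger differences with wide errors. For *Nploc4* (-0.08 ± 0.12) and *Gtpbp2* (-0.16 ± 0.22), lower in mutants in both fractions, the ratio of the fractions differed by less than its error. *Nemf* (0.04 ± 0.21), *Ankzf1* (0.08 ± 0.55), *Tcf25* (-0.11 ± 0.17) and *Zfp598* (0.17 ± 0.24) were likewise within 1 standard error of 0.

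Transcript estimates gave a further view of the members. The share of all transcripts or coding shares without overlap was not computed, so separation between genotypes is only described here. At gene level 11.3% of all features were already lower in MUT input without overlap. For *Hbs1l*, *Vcp* and the single-transcript genes *Zfp598*, *Pelo* and *Ltn1*, the same transcript led in all 14 libraries. *Hbs1l-209* (2733 bases) had 38.8, 35.4, 35.2 and 28.7 TPM in MUT input and 47.0, 50.8 and 48.3 TPM in WT input, without overlap, and 59.2, 22.2, 20.02 and 30.96 TPM in MUT IP and 69.7, 58.0 and 38.2 TPM in WT IP. The short coding transcript *Hbs1l-204* (437 bases) was at 28.7 TPM in input and 21.1 TPM in IP of mutant 69 and at most 1.08 TPM in any other library, so both libraries of that animal shared it.

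*Nemf-201*, the full coding transcript, had 5.73, 11.2, 11.6 and 13.3 TPM in MUT input and 16.0, 19.8 and 18.5 TPM in WT input, without overlap. Coding transcripts took 45.3 to 82.3% of *Nemf* counts in MUT input and 84.4 to 90.1% in WT input, the rest going to retained-intron and other noncoding transcripts. In IP the shares overlapped, at 80.5 to 94.8% in mutants and 93.5 to 97.4% in WT.

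*Gtpbp2* showed the same lower coding share in input, 5.30 to 64.4% in mutants and 68.9 to 90.9% in WT, and again an overlap in IP (58.6 to 82.6% in MUT and 62.3 to 79.4% in WT). By TPM, its leading transcript was a different one in each of the 4 mutants, in input and in IP. *Gtpbp2-201* led by TPM in all 3 WT inputs. In WT IP *Gtpbp2-215* led by TPM in 2 animals and *Gtpbp2-201* in 1. TPM divides by length, which raises short transcripts. By expected counts *Gtpbp2-201* led in every WT library and in both fractions of mutants 12, 93 and 94. It held 322, 208 and 510 counts in their inputs, and 0 in both libraries of mutant 69. *Gtpbp2-201* itself had 2.80, 0, 2.09 and 3.96 TPM in MUT input and 8.52, 7.10 and 6.09 TPM in WT input. *Gtpbp2* has 17 transcript entries, and such splits are estimates from shared reads. Mutant inputs 12 and 69 also had the fewest genes above 0, and the part of this in the transcript shares was not tested.

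*Nploc4* exchanged its coding transcripts between libraries: *Nploc4-202* was at 22.2 TPM in MUT input of animal 12 and 39.3 TPM in MUT IP of animal 94, against at most 5.76 TPM elsewhere, while *Nploc4-201* was low in the same libraries (9.04 and 38.3 TPM). The sum over both did not show this exchange. *Tcf25-206*, a noncoding transcript of 211 bases, had 51.7, 0, 37.6 and 4.54 TPM in MUT input and 0, 7.67 and 0 TPM in WT input, and for this reason gene-level TPM of *Tcf25* was not used for levels. *Ankzf1-208*, the main coding transcript, was listed at 0 in MUT input of animals 69 and 93 and at 5.06 to 6.59 TPM in their IP.

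The rest of the pathway was described from 5 lists of 60 genes, 56 of them measured. None was called between the genotypes in input or IP by edgeR. Before adjustment 5 genes passed 0.05 in input, of which 2 were higher, against 1.60% of all features higher and 4.76% lower. In IP 3 passed, of which 1 was higher, against 1.34% and 10.3%. DESeq2 called 1 higher in each and 0 lower (0.962% and 2.16% of all features in input, 1.63% and 7.94% in IP). In IP against input, 13 of 56 were called higher and 3 lower in mutants, where edgeR called 6.35% of all features higher and 3.56% lower. In WT 26 were called higher and 2 lower, against 13.0% and 6.37% of all features. These shares are the background for the edgeR counts of each list below. The median log2 values were 0.34 in MUT and 0.62 in WT, against -0.63 and -0.60 over all features. None of 52 was called for the genotype difference in IP/input by edgeR, nor was any feature. Before adjustment 3 passed 0.05 as higher and 1 as lower (0.475% and 6.74% of features). DESeq2 called 1 higher (0.212% of features). The median log2 difference was -0.03 over these genes and -0.29 over all features. MUT and WT values of the lists come from separate fits, the WT scale lying 0.31 above the CPM ratios, so they do not compare the genotypes.

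Among genes of nonstop decay and mRNA cleavage, 4 of 9 were called higher in IP in mutants and 6 of 9 in WT, none lower. DESeq2 gave 5 and 6 higher and 0 and 1 lower, against 13.9% and 22.9% of all features higher and 29.9% and 31.2% lower. The list had the highest medians, 1.02 in MUT and 1.33 in WT, on the separate scales of the 2 fits. Its median log2 genotype difference in IP/input was -0.03, against -0.29 over all features. *Skiv2l*, the helicase that feeds the exosome, was at log2 1.39 ± 0.11 in MUT and 1.73 ± 0.08 in WT, and *Wdr61*, of the same complex, at 1.02 ± 0.19 and 1.65 ± 0.11. Both passed the threshold in both genotypes (edgeR adjusted p = 0.00197 and 0.0240 in MUT, 0.00634 and 0.00641 in WT).

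Of the collision sensing and signalling list, 4 of 18 were called higher and 1 lower in mutants, and 9 higher and 2 lower in WT. *Gcn1l1*, which senses colliding ribosomes, was at log2 0.84 ± 0.15 in MUT and 1.38 ± 0.09 in WT, and *Rps3* and *Rps10*, ribosomal proteins that are ubiquitylated on stalling, were at 0.96 ± 0.14 and 1.12 ± 0.13 in MUT and at 1.51 ± 0.11 and 1.32 ± 0.18 in WT. All these passed the edgeR threshold. *Rps20*, another ribosomal protein gene measured here, was at -0.19 ± 0.46 in MUT and -0.20 ± 0.25 in WT and was called in neither.

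Of the ribosome splitting and recycling list 3 of 10 were called higher and 1 lower in mutants, and 4 higher and 0 lower in WT. *Eif6*, which keeps free subunits apart, was at 1.69 ± 0.21 in MUT and 2.05 ± 0.17 in WT, and *Denr*, a recycling factor, at 1.56 ± 0.17 and 1.37 ± 0.10. In the termination list *Gspt1* was the only one of 6 called in either genotype (1.29 ± 0.12 in MUT and 1.63 ± 0.13 in WT, edgeR), with *Etf1* at -0.34 ± 0.20 and 0.31 ± 0.13.

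Of the list of nascent chain release and alternative tailing routes 1 of 13 was called higher and 1 lower in mutants, and 6 higher and 0 lower in WT. *Nsfl1c*, a VCP cofactor, led it with 1.89 ± 0.15 in MUT and 2.30 ± 0.14 in WT, whereas *Ufd1*, at -0.03 ± 0.35 and 0.999 ± 0.25, passed in neither genotype.

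**Figure D4:**
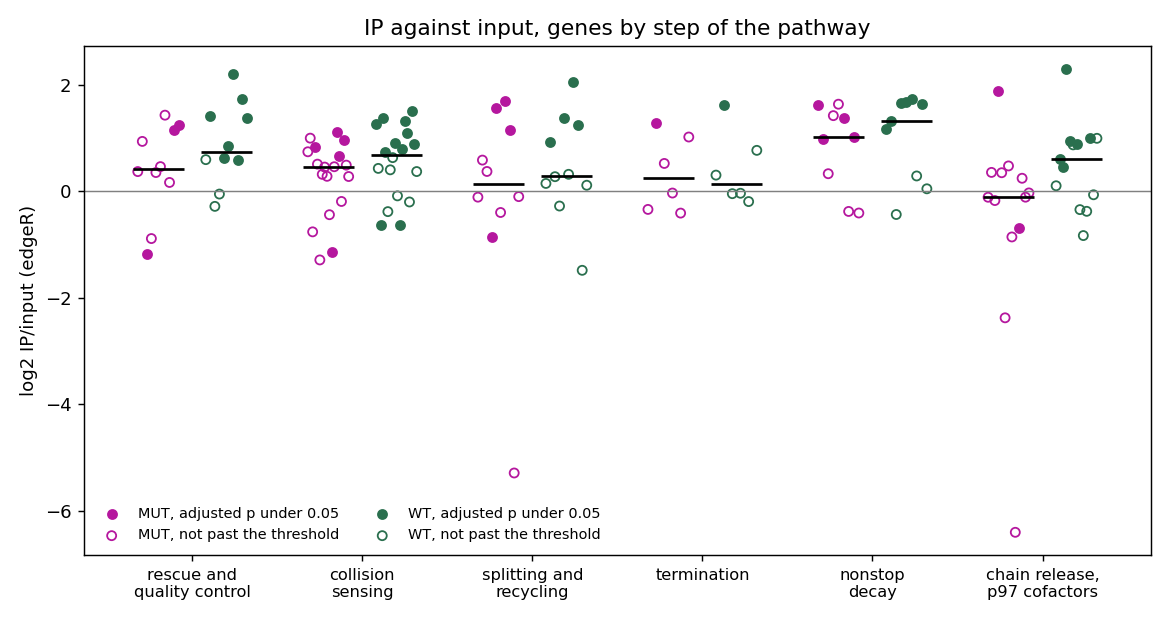
Log2 IP/input from edgeR for each gene of the members (left) and the 5 pathway lists, MUT left of WT, with filled points past the adjusted threshold of 0.05, open points not, and black bars for list medians. Nonstop decay genes have the highest medians, 1.02 in MUT and 1.33 in WT, and *Gspt1* has the only filled points of the termination list. MUT and WT values come from separate fits, with the WT scale 0.31 above the CPM ratios, so their heights do not compare the genotypes.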

How the data were processed

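The authors trimmed stranded paired-end reads of rRNA-depleted RNA, removed remaining rRNA reads and quantified an expanded mouse testis transcriptome (GRCm38) with RSEM 1.3.3. Per the labels, 14 tables were deposited, each with expected counts (estimated reads per transcript, which need not be whole) and TPM (abundances scaled by transcript length and library by the authors).

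Expected counts were summed by gene symbol with the GENCODE M21 annotation (133445 of 133849 Ensembl transcripts matched), rounded, and tested with edgeR 4.0.16 (TMM factors, filterByExpr, robust quasi-likelihood fit, Benjamini-Hochberg over all features). Assembled transcripts stayed single features and spike-ins were left out. CPM values use TMM factors of all 14 libraries. The 5 comparisons were MUT against WT in input and in IP, IP against input in each genotype, and the difference of the last pair, those 3 with the animal as a block because both libraries came from 1 animal (deviations of paired libraries correlated by 0.01 to 0.08). IP/input ratios were also tested with an exact permutation test over 35 splits. Animals are biological replicates. SE is the log2 change divided by the root of F. Alternatives were DESeq2 1.42.0, other factors and filters, limma 3.58.1 on log2(TPM + 1) and log2(TPM + 0.1), coding transcripts or annotated genes only, no block, and each animal left out. Scripts were tested on simulated data. Named genes outside the members were the 6 of lowest p among called list genes in a comparison, and *Etf1*, *Gspt1*, *Gtpbp1*, *Ufd1* and *Rps20*. The members and lists were chosen with earlier results of these data known.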

Additional observations from a re-analysis of the deposited data

Results flagged for a closer look

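In 30 groups of 4 mutant values, 2 held a sample set apart from the rest by Dixon's test, and chance gives about 1 in 20. *Ltn1* in MUT input was at 109.8 CPM in animal 12 and at 86.9 to 90.2 CPM in the other mutants. The *Ankzf1* ratio of IP to input CPM was 1.97 in mutant 12 and 1.12 to 1.14 in the other mutants. Animal 12 is one of the 2 mutants with few genes above 0 in input, and the part of this in either value was not tested.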

How the results depend on the processing

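Most of the members' values kept their direction and their side of the threshold under the alternatives (677 of 779), 26 passed and 32 missed the threshold only there, and 44 turned. The count of members called for MUT against WT stayed at 0 in input and in IP/input, and in IP it was 2 with DESeq2. For IP against input in mutants, 2 members were higher and 1 lower in the report. DESeq2 gave 5 higher and 2 lower (3192 and 6847 of 22918 features). With limma there were 7 higher and 0 lower on log2(TPM + 1) (5214 and 1121 features) and 6 and 0 on log2(TPM + 0.1) (4870 and 1230). A minimum of 10 counts in every library gave 3 higher and 2 lower (1960 and 1977 of 9872 features). The count of both directions was 0 without animals 12 and 69 together, and between 1 and 3 with single mutants left out. In WT, 7 in the report, it was between 0 and 5 with single animals left out. With both samples of a pair treated as unrelated (no replicate block), it was 5 in mutants, 7 in WT and 0 for the genotype difference. Leaving out animals left 2 or 3 per group, and where no feature was called the number of samples tested was smaller by construction. Over all features, the calls between genotypes were 2 higher and 1 lower with edgeR and 352 higher and 791 lower with DESeq2 in input, and 1 and 1 with edgeR and 426 and 2078 with DESeq2 in IP. RLE factors moved the median log2 change of all features in IP to -0.05, against -0.15 with TMM factors, and that of IP against input in mutants to -0.76, against -0.63, and *Ltn1* was then called lower in IP in mutants as well (log2 -1.02, edgeR adjusted p = 0.0369).

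Directions that turned were mostly on the TPM scale, and the cause was not tested. With log2(TPM + 0.1) and log2(TPM + 1), the genotype difference in input was -0.0914 and -0.0801 for *Zfp598*, -0.0475 and -0.0271 for *Pelo*, 0.406 and 0.393 for *Gtpbp2*, 0.0017 and 0.0032 for *Nemf* and -0.181 and -0.180 for *Vcp*. In IP it was 0.0582 and 0.0573 for *Nemf* and 0.0894 and 0.0853 for *Ankzf1*. IP against input was 0.0641 and 0.0665 for *Ltn1* in mutants, and 0.108 and 0.107 for *Hbs1l* and 0.354 and 0.330 for *Ltn1* in WT. The IP/input difference was 0.163 and 0.155 for *Nploc4* and 0.279 and 0.289 for *Tcf25*, and 1.29 for *Gtpbp2* over coding transcripts alone. Without animals 12 and 69, *Vcp* in input was -0.0277, and the IP/input difference was -0.0678 for *Nemf* and -0.105 for *Ankzf1*. With single animals left out, values that turned ran between -0.0701 and 0.472 for *Pelo* and -0.0269 and 0.105 for *Vcp* in input, between -0.153 and 0.0501 for *Ltn1* in WT IP against input, and in the IP/input difference between -0.0253 and 0.262 for *Zfp598*, -0.199 and 0.132 for *Nemf* and -0.105 and 0.136 for *Ankzf1*. The IP/input TPM ratio difference of *Pelo* (0.157) was -0.255 on the log2 scale, and with CPM ratios the differences were -0.564 for *Pelo*, -0.0741 for *Nploc4* and -0.0829 for *Tcf25*.

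Depth limits *Pelo* and *Ankzf1* most, since their input libraries held 173 to 533 and 192 to 388 expected counts.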
